A study of Mus musculus with 2 samples.

Results

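The annexins, the annexin 2 partner gene S100a10 and the giant scaffold gene Ahnak were examined in mouse embryonic stem cells that express a Dab2 hairpin and in vector control cells. The group was defined by name as 10 genes, out of 12393 genes with a probe set of their own on the array. It was proposed because some of its members were already known to be lower in these data. All probe sets annotated to 1 of the listed genes alone were taken, which gave 20 probe sets for 9 of the 10 genes. The probe set of Anxa11 is shared with other genes, so Anxa11 has no value here.

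Both samples derive from E14tg2a, an established line of murine embryonic stem cells. The shDAB2 sample is clone 4 of cells stably transfected with a plasmid that encodes the hairpin shDAB2-285, and the vector sample is clone 9 of cells stably transfected with the control plasmid. Both grew without further treatment in GMEM medium with 10% fetal bovine serum, glutamine, antibiotics and 1000 U/ml of leukaemia inhibitory factor, which maintains the undifferentiated state. Each clone was measured on 1 Affymetrix mouse 430A array. There are no replicates, so no test across samples exists, and the hairpin, the clone and the culture cannot be told apart as the origin of a difference. Values are RMA signals on the log2 scale, and a difference is the shDAB2 value minus the vector value.

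Annexins are cytosolic proteins that bind acidic phospholipids on the inner face of membranes when calcium rises. Annexin 2 pairs with S100A10, an S100 protein that does not itself need calcium, and the complex can bridge membranes and attach them to cortical actin. The S100A10 protein is known to be unstable without annexin 2. AHNAK, a very large scaffold protein, docks on this complex at the plasma membrane. Annexins also take part in endosome traffic and in the sealing of torn plasma membrane.

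Of the 9 measured genes, 4 were at least 1.5-fold lower in the shDAB2 clone: Anxa3, Ahnak, Anxa1 and Anxa2. The same held for 1.62% of the 7269 genes whose higher value reached the median of all values. Known differences helped to choose the group, so the count only describes it. The remaining 5 members (Anxa6, Anxa7, Anxa5, Anxa4 and S100a10) lay between -0.38 and -0.04 on the log2 scale. The transcript of S100a10 was nearly equal in the clones although that of its partner Anxa2 was 1.59-fold lower on its brightest probe set.

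The promoters of the 3 members past 1.5-fold that have an entry in the RefSeq table, and that of Anxa5, whose difference was small, are shown so that the control regions can be compared. Each is the 250 bases before the annotated start (GRCm38.p6), on the strand of the gene, and capitals mark the motifs that were searched. Ahnak lies on the plus strand at chr19:8989034-8989283, Anxa1 on the minus strand at chr19:20390672-20390921, Anxa2 on the plus strand at chr9:69453433-69453682 and Anxa5 on the minus strand at chr3:36475888-36476137.
Ahnak: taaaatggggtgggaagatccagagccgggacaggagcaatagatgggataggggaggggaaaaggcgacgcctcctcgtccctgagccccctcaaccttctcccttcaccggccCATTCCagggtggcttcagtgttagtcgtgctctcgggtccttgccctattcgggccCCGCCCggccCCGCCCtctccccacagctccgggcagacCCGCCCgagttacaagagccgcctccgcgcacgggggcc
Anxa1: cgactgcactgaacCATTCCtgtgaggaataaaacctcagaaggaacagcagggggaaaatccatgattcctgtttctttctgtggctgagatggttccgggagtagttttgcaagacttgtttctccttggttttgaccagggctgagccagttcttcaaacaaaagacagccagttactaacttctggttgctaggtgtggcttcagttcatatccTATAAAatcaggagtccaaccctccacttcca
Anxa2: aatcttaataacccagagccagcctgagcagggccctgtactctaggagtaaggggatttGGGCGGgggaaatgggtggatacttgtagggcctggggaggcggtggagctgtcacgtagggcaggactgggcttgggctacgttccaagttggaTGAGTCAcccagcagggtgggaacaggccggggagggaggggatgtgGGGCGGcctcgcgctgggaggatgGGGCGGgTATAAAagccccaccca
Anxa5: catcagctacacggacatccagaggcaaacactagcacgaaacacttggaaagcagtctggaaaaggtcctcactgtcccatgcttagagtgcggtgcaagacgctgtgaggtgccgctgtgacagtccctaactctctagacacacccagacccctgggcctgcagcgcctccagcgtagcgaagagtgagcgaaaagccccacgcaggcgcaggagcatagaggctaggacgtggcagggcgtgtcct

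A total of 5 motifs were searched on both strands, and no match overlapped another motif. They were the AP-1 site TGANTCA, the TEAD site GGAATG, the TATA box TATAAA, the GC box GGGCGG and the CArG box bound by serum response factor. The Anxa2 promoter held 1 AP-1 match, 95 to 89 bases before the start, a motif found in 6.75% of the 32851 promoters of the table at this length. Ahnak and Anxa1 each held 1 TEAD match, on the minus strand of the gene, at 135 to 130 and 236 to 231 bases before the start. A TEAD match occurs in 12.6% of promoters. The TATA box was present in Anxa1 and Anxa2, 32 to 27 and 17 to 12 bases before the start, against 12.4% of all promoters. GC boxes numbered 3 in Ahnak and 3 in Anxa2, with 32.7% of promoters holding at least 1. The CArG box, present in 1.47% of promoters, was found in none of these windows, and the Anxa5 window held none of the 5 motifs. The promoters of Anxa7 and Anxa4, also short of 1.5-fold, are not printed. The overlapping Anxa7 windows held 1 and 4 GC boxes, and the Anxa4 windows held none of the 5 motifs. Anxa11, which has no value, held 3 GC boxes. No single motif was shared by Ahnak, Anxa1 and Anxa2. Such matches describe letters, not binding.

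Anxa3 encodes an annexin found in many epithelial and myeloid cells. Its only probe set (1460330_at) read 9.20 in vector cells and 8.08 in shDAB2 cells, a difference of -1.12, or 2.17-fold lower. This was the 9th lowest difference among the 7269 genes above the floor, the median of all values on both arrays (6.62). The 500 probe sets of most similar signal had differences with an SD of 0.29.

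Anxa1 encodes annexin 1 (lipocortin), a substrate of growth factor receptor kinases that also acts outside the cell through formyl peptide receptors. Its only probe set (1448213_at) read 9.07 in vector cells and 8.29 in shDAB2 cells. The difference of -0.78, or 1.71-fold lower, compares with an SD of 0.30 among probe sets of similar signal. The receptor gene Fpr2 lay below the floor in both clones, at 6.15 and 6.12, so no difference of the receptor transcript could be read.

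Anxa2 encodes the annexin of the S100A10 complex. Its brightest probe set (1419091_a_at) read 9.49 in vector cells and 8.82 in shDAB2 cells, a difference of -0.67. The second probe set (1437692_x_at) was just above the floor, at 6.64 and 6.47, and differed by -0.17. The third lay below the floor and was 0.04 higher in the shDAB2 clone. The 1.59-fold difference therefore rests on 1 bright probe set, and the mean of all 3 was -0.27.

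S100a10, the partner of Anxa2, differed from it. Its brightest probe set (1416762_at) read 9.77 in vector cells and 9.73 in shDAB2 cells. The second (1456642_x_at) read 8.59 and 8.56, so both probe sets placed the clones within 0.04 of each other. On the brightest probe sets the difference of Anxa2 was 0.63 below that of S100a10, equal to a 1.55-fold shift of their ratio between the clones. The gap was 0.24 (1.18-fold) when all probe sets of each gene were averaged and 0.15 on the second probe sets, a comparison added after the data were seen. The brightest and second probe sets of Anxa2 themselves differed by 0.50. The probe noise of 1 probe set's difference had an SD of 0.11. It was estimated from the disagreement within pairs of probe sets above the floor in 2502 genes. That SD covers probe noise and transcript variants, not the spread between cultures. The differences of all genes above the floor had an SD of 0.22.

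Ahnak had 4 probe sets of which only 1 was bright. The bright one (1452217_at) read 9.53 in vector cells and 8.50 in shDAB2 cells, a difference of -1.03 or 2.04-fold lower. It was the 12th lowest of all genes above the floor, with an SD of 0.31 among probe sets of similar signal. The other 3 lay below the floor in both clones, between 6.26 and 6.47, and differed by -0.11, -0.10 and 0.11. The mean of all 4 was -0.28, so the 2-fold size comes from 1 probe set.

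**Figure D1:**
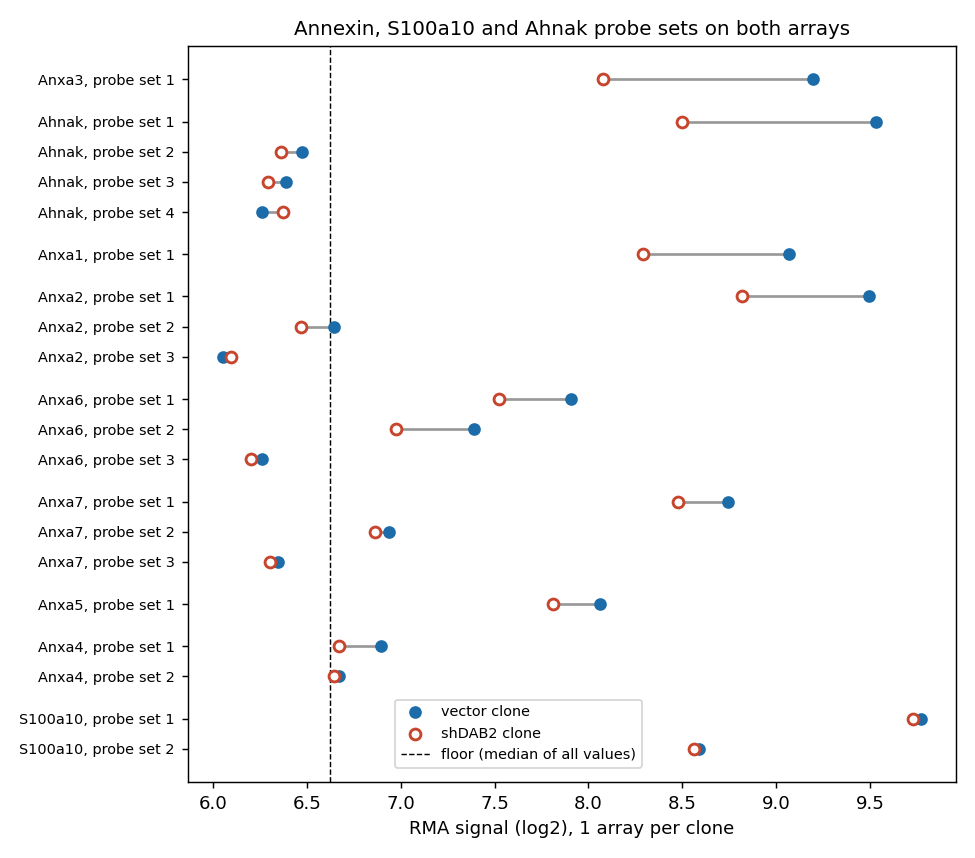
Signals of all 20 probe sets of the 9 measured genes on the log2 scale, ordered by the gene's difference, with probe sets numbered from bright to dim. Filled points are the vector clone, open points the shDAB2 clone and the dashed line the floor at 6.62; the open point lies to the left in 18 probe sets, and the gap is widest for Anxa3, Ahnak, Anxa1 and Anxa2 on their brightest probe sets.

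Anxa6 encodes an annexin with an unusually long core that is known from endosomes and the plasma membrane. Its brightest probe set read 7.90 in vector cells and 7.52 in shDAB2 cells, and its second read 7.39 and 6.97. The differences of -0.38 and -0.41 were alike, which made Anxa6 the member whose shift of intermediate size was read by more than 1 probe set. The third probe set, below the floor, gave -0.06.

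Anxa7, whose protein synexin aggregates secretory granules, read 8.74 in vector cells and 8.48 in shDAB2 cells. Its difference of -0.26 was smaller than the SD of 0.30 among probe sets of similar signal, and its other probe sets gave -0.07 and -0.04. Anxa5, the phosphatidylserine-binding annexin used to stain dying cells, read 8.06 and 7.81 on its only probe set. The difference of -0.25 equalled the SD of 0.25 for its signal range.

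Anxa4, an annexin of epithelial membranes, read closest to the floor. Its values were 6.89 in vector cells and 6.67 in shDAB2 cells, a difference of -0.22 against an SD of 0.14 for similar signals. The second probe set, at 6.67 and 6.64, differed by -0.02. RMA is known to compress the differences of dim probe sets, so the folds of Anxa4 and of the probe sets near the floor may be understated.

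In order of difference on the brightest probe sets the genes ran Anxa3 (-1.12), Ahnak (-1.03), Anxa1 (-0.78), Anxa2 (-0.67), Anxa6 (-0.38), Anxa7 (-0.26), Anxa5 (-0.25), Anxa4 (-0.22) and S100a10 (-0.04). Neighbours lay closer to each other than 0.15, the probe-noise SD of a gap between a pair of genes, except at 3 steps: Ahnak to Anxa1, Anxa2 to Anxa6, and Anxa4 to S100a10. That SD is pooled over many genes, and the probe sets of Ahnak and Anxa2 disagreed by more. With all probe sets averaged, Ahnak (-0.282) was no longer below Anxa1 (-0.776), nor Anxa2 (-0.268) below Anxa6 (-0.285). Anxa4 (-0.12) stayed below S100a10 (-0.03). The order and its steps therefore describe the brightest probe sets only. The gap at the 1.5-fold limit lies between Anxa2, just past it, and Anxa6, short of it. All 9 genes passed the floor, and 4 of 9 were at least 1.5-fold lower, where 1.62% of all genes above the floor were. Of the 9, 2 were at least 2-fold lower against 0.179% of all genes, and 9 of 9 were lower by any amount against 49.3%. Their median was -0.38, and that of all genes above the floor was 0.0006. The shares over all genes are not matched for signal. Probe sets as bright as those of Anxa3, Ahnak, Anxa1 and Anxa2 had differences with SDs of 0.29 to 0.32, against 0.22 for all genes above the floor. Because known differences helped to choose the group, these shares describe it and support nothing further.

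Among probe sets, 13 of 20 were above the floor on both arrays and 13 of those 13 were lower, where 49.9% of all such probe sets with 1 gene were. The second probe set of Anxa2 passed only through the vector array and so had to be lower. Of the 6 below the floor, 4 were lower and 2 higher. Dab2, the gene the hairpin targets, read 6.64 in vector cells and 6.33 in shDAB2 cells on its brightest probe set, a difference of -0.31. That probe set was above the floor on the vector array only. The other Dab2 probe sets, below the floor on both arrays, gave -0.05 and -0.01. At such signals the arrays can hardly show whether the Dab2 transcript was reduced.

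**Figure D2:**
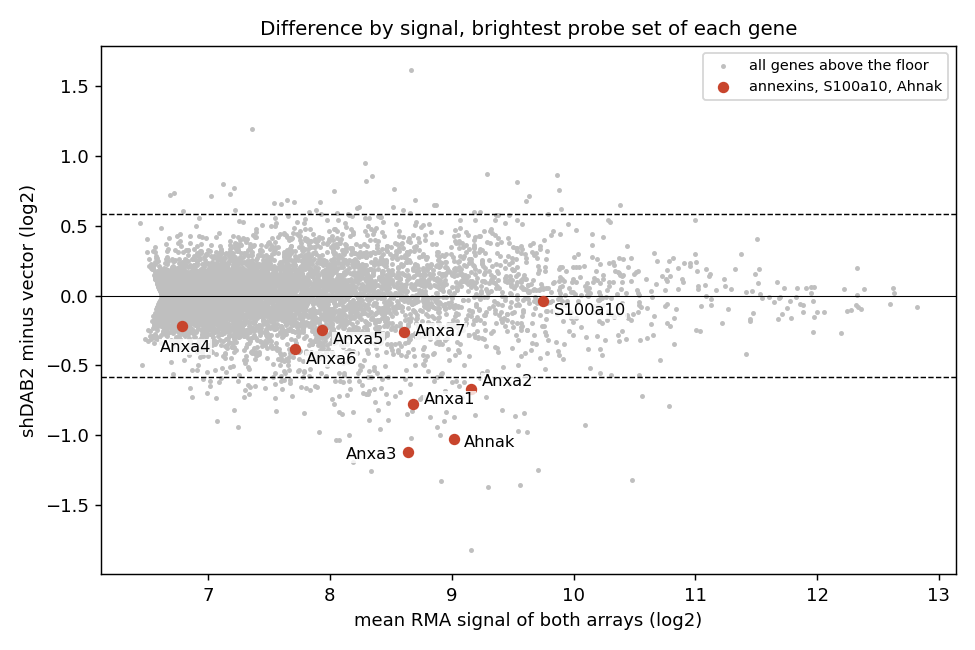
Log2 difference (shDAB2 minus vector) against the mean log2 signal of both arrays for the brightest probe set of 7269 genes above the floor (grey) and the 9 measured members (red). Dashed lines mark 1.5-fold; Anxa3, Ahnak, Anxa1 and Anxa2 lie below the lower line and S100a10 lies beside 0.

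Annexins outside the named group lay at or below the floor. Anxa8 read 6.66 in vector cells and 6.67 in shDAB2 cells, at the floor. The remaining 3 measured (Anxa9, Anxa10 and Anxa13) lay below it, and the 4 genes differed by -0.02 to 0.10. None of them showed a difference like those of Anxa1, Anxa2 and Anxa3, but at such signals a difference could hardly be seen.

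The relatives of S100a10 were mostly below the floor, and S100a6 was well above it and lower. Of 15 listed S100 genes 12 were measured and 4 passed the floor, 3 of them lower and 1 higher. Of these 4, S100a1 and S100a13 passed only through the vector array and so had to be lower. S100a6 (calcyclin), a calcium sensor that binds several annexins, read 9.62 in vector cells and 8.76 in shDAB2 cells. Its difference of -0.85, or 1.81-fold lower, contrasts with the near equality of S100a10. S100a13 differed by -0.36 and S100a1 by -0.23 (-0.05 on its second probe set), both close to the floor, while S100a16 was 0.01 higher.

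Other annexin partners differed less than S100a6. In the list of calcium-binding and membrane-scission partners 5 of 6 measured genes passed the floor, 4 lower and 1 higher, with a median of -0.12 that includes S100a6. Pdcd6ip, which encodes the adaptor ALIX, differed by -0.35 on its brightest probe set and by -0.11 on the next. Pdcd6 (ALG-2), a calcium sensor that binds annexins 7 and 11, was 0.06 higher. Capns1 differed by -0.12, and Sri (sorcin), a partner of annexin 7, by -0.11.

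Genes of plasma membrane repair, a process in which annexins take part, were divided. Of 25 listed genes 20 were measured and 16 passed the floor, with 10 lower, 6 higher and a median of -0.09. None reached 1.5-fold in either direction, where 1.62% of all genes did so downward and 0.578% upward. The largest differences were those of the calpain gene Capn2 (8.37 in the vector clone, 7.97 in the shDAB2 clone), of Pdcd6ip and of the membrane-scission gene Chmp2a (8.67 and 8.33). The highest was Chmp6, a gene of the same scission machinery, at 0.15.

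Genes that connect cell-surface annexin 2 to plasmin lay mostly below the floor. Of 10 listed genes 7 were measured and 2 passed the floor: Plaur, the urokinase receptor gene, at -0.23, and the antiplasmin gene Serpinf2 at -0.14. Plg and Plat, for plasminogen and its tissue activator, lay below the floor. The copines, another family of calcium-dependent membrane-binding proteins, had 4 measured genes, and the pair above the floor differed by -0.38 (Cpne3) and -0.27 (Cpne1). In the list of annexin receptors 3 of 4 genes were measured and 1 passed the floor, Tlr2, through the shDAB2 array only (6.61 and 6.68). The relatives of Ahnak (Ahnak2 and Prx) had no probe set of their own.

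**Figure D3:**
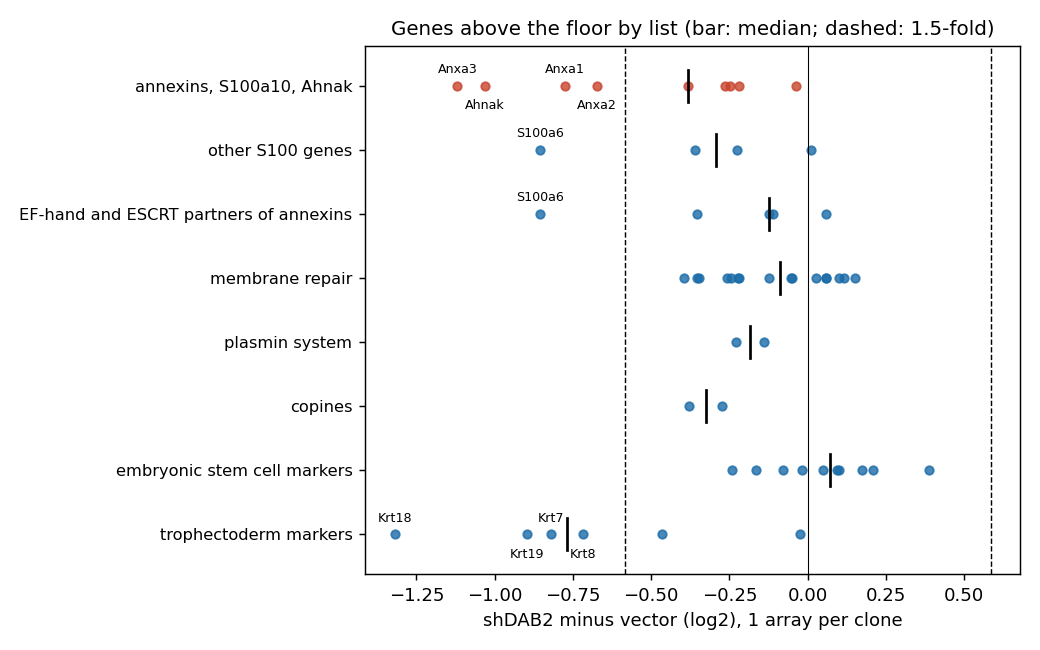
Log2 differences (shDAB2 minus vector) of the genes above the floor among the members and in the lists drawn, with a bar at the median and dashed lines at 1.5-fold. Each point is 1 gene, and a gene on several lists is drawn in each. The other annexins, annexin receptors and the fibroblast, primitive endoderm and macrophage lists are not drawn. The members span -1.12 to -0.04, S100a6 stands alone past 1.5-fold among the related genes, and the keratin genes of the trophectoderm list lie in the range of Anxa1, Anxa2, Anxa3 and Ahnak or below it.

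The stem cell identity of the samples matched the label: 10 of 10 embryonic stem cell markers passed the floor, 4 lower and 6 higher, with a median of 0.07. Markers of fibroblasts (1 of 10 above the floor), primitive endoderm (2 of 10) and macrophages and blood (1 of 7 measured) stayed at or near the floor, with differences from -0.13 to 0.12. The trophectoderm list was lower as well. Of its 10 genes 6 passed the floor and 6 of 6 were lower, where 49.3% of all genes above the floor were. The differences ran from -1.32 to -0.02 (Hand1, nearly equal in the clones), with a median of -0.77. The summed linear signal of the list was 5715 in vector cells and 3158 in shDAB2 cells. That sum is weighted to its brightest genes, the keratin genes Krt18 (11.14 in vector cells, 9.82 in shDAB2 cells) and Krt8 (10.92 and 10.21). The keratin genes Krt18 (-1.32), Krt19 (-0.90), Krt7 (-0.82) and Krt8 (-0.72), which are expressed in simple epithelia of many kinds, made up the part past 1.5-fold. Among all genes above the floor, 1.62% were at least 1.5-fold lower. Of the lineage regulators in the list, Tfap2c was above the floor and lower, at 7.53 and 7.06 (-0.47, and -0.22 on its second probe set), and Hand1 was above the floor at 6.88 and 6.86. Cdx2 (6.52 and 6.50), Eomes (6.49 and 6.59), Elf5 (6.25 and 6.32) and Gata3 (6.39 and 6.37) lay below the floor in both clones. The part of keratin-expressing cells in the annexin differences was not tested, and in such bulk samples fewer cells of a type and less RNA per cell cannot be told apart.

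The genes whose pair of values lay nearest to that of Anxa3, the member with the largest difference, were Rhox5, Gstp1 and Pdlim7. Likeness was the Euclidean distance over the log2 values of the 2 arrays. Rhox5, an X-linked homeobox gene, read 9.18 and 8.16, at a distance of 0.08. Gstp1, a glutathione transferase gene, read 9.06 and 8.21 (distance 0.19), and Pdlim7, which encodes an actin-associated LIM protein, read 9.09 and 8.26 (distance 0.21). With 2 arrays, likeness says no more than that the pairs of values are close.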

How the data were processed

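RNA was measured on 2 Affymetrix mouse 430A arrays, 1 per clone, with groups from the titles. The deposited table holds 1 value per probe set and array, made with RMA (background correction, quantile normalization and probe summary), per the submitters' processing notes. The authors' values were taken as log2 because RMA writes log2 values. The RMA version is not given in the sources used here, nor is whether more arrays were normalized jointly. No detection calls were used, and the number of arrays limits the precision.

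Of 22626 probe sets, 20380 had 1 gene in the platform annotation, 691 had several and 1555 none. Of the 20380 probe sets with 1 gene, 20351 had a gene ID that matched RefSeq (GRCm38.p6). Each gene took its brightest probe set, and the floor was passed where the higher value reached 6.62, the median of all values (7269 genes). Differences are described by size, with no test. Members and lists were chosen with earlier results of these data known. Named genes are all members, Dab2, list genes past 1.5-fold or otherwise up to 3 per list, up to 3 bright markers, and the 3 genes nearest to Anxa3. Others (S100a16, Pdcd6, Sri, Chmp6, Fpr2, Plg, Plat, Anxa8, Anxa9, Anxa10, Anxa13, Cdx2, Eomes, Elf5, Gata3, Tfap2c and Hand1) were named after their values were seen. Alternatives used limma 3.58.1 in R 4.3.3. The steps that pick probe sets and count genes past a size limit were checked on simulated data. There all probe sets of a changed gene moved alike, so the check does not cover genes whose probe sets disagree, such as Ahnak and Anxa2. No difference was tested. Promoter sequences are those of RefSeq, with entries for 7 of the 10 genes; Anxa3, Anxa6 and S100a10 have none there.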

Additional observations from a re-analysis of the deposited data

How the results depend on the processing

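Under 7 alternatives the 55 values of member genes were below 0 in 55 cases. Of them 49 stayed within 0.11, the probe-noise SD of a probe set, and 6 did not. Many could not move. The floor settings and the removal of probe set classes reused the same brightest values, and centring shifted all values alike. Anxa1, Anxa3 and Anxa5 have 1 probe set, so averaging left them unchanged. All 6 that moved came from averaged or next brightest probe sets, where other probe sets enter. The next brightest of Anxa2 passed the floor only through the vector array and so had to be lower. The count of 4 genes at least 1.5-fold lower was 4 after cyclic loess, after centring on the median, with no floor and with a floor at the 75th percentile. It was 3 of 6 without probe sets ending in _s_at, _x_at or _a_at, which left Anxa2 without a probe set above the floor. It was 2 when all probe sets of each gene were averaged, where Ahnak gave -0.28 and Anxa2 -0.27, and 0 of 5 with the next brightest probe set, where Anxa2 gave -0.17, Anxa1 and Anxa3 have no further probe set and that of Ahnak lies below the floor. A 2-fold limit left 2 genes by construction. Over all genes the same count was 118 in the main setting. It was 129 after cyclic loess, 125 after centring, 118 with no floor and 114 with the floor at the 75th percentile. It was 85 without the named classes, 81 with averaged probe sets, 40 with the next brightest and 13 at the 2-fold limit. The totals of genes under each alternative are not given here, so these are counts and not shares. The median difference of -0.38 became -0.27 with the mean of probe sets and -0.073 with the next brightest, and -0.58 without the named classes and -0.53 with the higher floor, which dropped members. No paired analysis was possible because each group holds 1 array.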

Other observations

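Ahnak and Anxa2 were not alone in having bright and dim probe sets that differ. Of the other genes at least 1.5-fold lower on their brightest probe set, 16 had further probe sets below the floor, 20 in all. These ranged from -0.33 to 0.16 with a median of -0.06, 14 of the 20 were lower, and 0 of the 20 reached 1.5-fold. Among the 500 probe sets of most similar signal, differences had an SD of 0.09, 0.08 and 0.07 for the dim probe sets of Ahnak. The 0 of 20 was thus nearly fixed by the choice of dim probe sets and says nothing about these genes. The share of lower values among all probe sets below the floor was not counted, so 14 of 20 has no comparison.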
